A study of Caenorhabditis elegans with 4 samples.

Results

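The LIN-53 regions on the X chromosome of Caenorhabditis elegans were taken from peak lists of chromatin immunoprecipitation followed by sequencing (ChIP-seq). All X-linked peaks of both ChIP replicates were pooled, and peaks that shared at least 1 bp were joined. This gave 203 X regions out of 2662 regions in the whole genome. Of the X regions, 42 contained peaks of both replicates, 56 came from replicate 1 only and 105 came from replicate 2 only. They were built from 98 X peaks of replicate 1 and 155 X peaks of replicate 2. The series also has a list of its own, whose entries are named consistent sites, and 23 of these lay on X. No measured value entered the choice of regions beyond the presence of a peak.

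The animals were wild-type N2 larvae at the L3 stage, a mixed population of males and hermaphrodites kept at 20 °C, from whole-worm extracts. The 2 ChIP libraries were made with a rabbit polyclonal antibody raised against LIN-53, and the other 2 libraries are input DNA from the same strain and stage. The labels number the replicates without naming their cultures, so the spread between them may be technical. Whole larvae mix all tissues and both sexes, which differ in the number of X chromosomes, so that binding in few cells and weak binding in many cannot be told apart.

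LIN-53 is a WD40-repeat histone chaperone of the RbAp46/48 family, which binds histones H3 and H4. In worms it is a subunit shared by several complexes, among them the DRM complex with the retinoblastoma-like protein LIN-35 and E2F, the NuRD remodelling complex, and complexes that deposit or modify histones. The X chromosome is a special case in worm gene regulation: in hermaphrodites a condensin-containing dosage compensation complex lowers transcription from both X chromosomes, and in the germ line X is largely kept silent. Genes at the regions below were not analysed here, as the gene table at hand refers to another genome build. All positions are WormBase WS220, the build named in the file headers.

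Few X regions were shared by the replicates. Of the 203 X regions, 42 were in both lists, which is 20.7% (95% exact interval 15.3 to 26.9%). On the autosomes it was 1193 of 2459 regions, or 48.5% (46.5 to 50.5%), and over all regions the share was 46.4%. The odds of being in both lists were 0.277 times as high on X as on the autosomes (interval 0.191 to 0.395, two-sided Fisher's exact p = 3.85e-15). The test treats regions as independent, which regions lying side by side are not.

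X was low against each autosome separately. The autosomal shares ran from 42.1% on chromosome IV to 53.3% on chromosome II. The highest p of the 5 tests of X against an autosome was that against IV (adjusted Fisher's exact p = 4.62e-08). By density of regions, the class in both lists was the lowest of the 3 on X and the highest on the autosomes. Regions in both lists numbered 2.37 per Mb on X and 14.5 per Mb on the autosomes. The nearest autosome was V, at 9.75 per Mb. Regions of replicate 1 only numbered 3.16 per Mb on X and 7.69 on the autosomes. Regions of replicate 2 only numbered 5.93 per Mb on X and 7.66 on the autosomes. The density ratio of X to the autosomes was 0.164 (0.117 to 0.223) for regions in both lists, 0.411 (0.307 to 0.541) for replicate 1 only and 0.773 (0.623 to 0.952) for replicate 2 only. With peaks within 5 kb joined it was 0.196 (0.141 to 0.266) for both lists and 0.569 (0.404 to 0.782) for replicate 1 only. For replicate 2 only it was then 0.874 (0.588 to 1.27, exact binomial p = 0.532), and a lower density on X was not shown. Neighbouring regions in both lists lay 248 kb apart on X, as the median distance between their middles, against 32.0 to 51.7 kb on the autosomes.

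**Figure D1:**
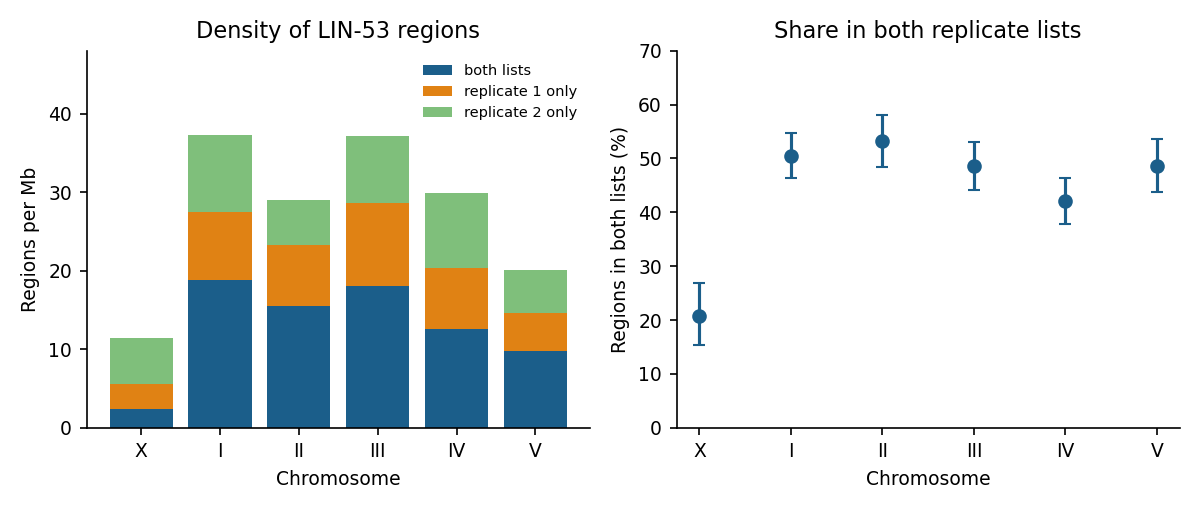
Left, LIN-53 regions per Mb on each chromosome, split into regions in both replicate lists, in replicate 1 only and in replicate 2 only. Right, the share of regions in both lists with its 95% exact interval. X has 11.5 regions per Mb, of which 20.7% are in both lists, and every autosome has a share of at least 42.1%.

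The 12 best-ranked X regions are described first, a ranking open only to regions in both lists. Scores are the authors' own per-peak values, whose unit is not named, and ranks are percentiles within the own list, averaged over both lists for regions in both. The X region with the best mean rank ran from 59186 to 59419, near the left end of the chromosome. It scored 90.4 in replicate 1 (percentile 93.7) and 39.6 in replicate 2 (percentile 92.8). Even so, 122 of the 1193 autosomal regions in both lists had a better mean percentile. A further strong region lay close by, from 104788 to 105045, and scored 33.2 in replicate 1 and 23.1 in replicate 2.

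Near the right end was the widest X region, from 16930717 to 16932016 (1300 bp). Replicate 1 covered it with 1 peak that scored 101.2, the highest X-linked score of that list. Replicate 2 covered it with 4 separate peaks, of which the best scored 17.2. Its left neighbour, from 16929772 to 16930585 (814 bp), was alike in build, with 1 peak in replicate 1 (score 33.1) and 3 in replicate 2 (best score 13.0). Together with 2 single-list regions they formed a stretch of 2746 bp with 3 peaks of replicate 1 and 8 of replicate 2. No consistent site lay in it.

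The other regions among the 12 best were narrow and scattered. The region from 6840895 to 6841099 scored 45.6 in replicate 1 and 14.9 in replicate 2. That from 5953239 to 5953366 scored 35.4 in replicate 1 and 14.9 in replicate 2. That from 11094040 to 11094247 scored 30.9 in replicate 1 and 14.6 in replicate 2. None of these 3 regions held a consistent site. Their percentiles in replicates 1 and 2 were 81.8 and 72.4, 76.2 and 72.4, and 72.9 and 71.7.

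Another 3 of the 12 each held a consistent site. The region from 2089618 to 2089834 scored 24.9 in replicate 1 and 22.2 in replicate 2. The region from 2242862 to 2243108 scored 23.0 in replicate 1 and 20.1 in replicate 2. The region from 6296386 to 6296658 scored 20.4 in replicate 1 and 20.8 in replicate 2. These 3 had higher percentiles in replicate 2 (81.1 to 83.5) than in replicate 1 (61.3 to 67.0). The last regions of the 12 ran from 14489883 to 14490068 (scores 26.4 and 14.3 in replicates 1 and 2) and from 6804963 to 6805145 (21.3 and 12.7 in replicates 1 and 2). In all, 5 of the 12 lay in the middle of 3 equal sections of X, and 4 of the 12 held a consistent site. Among all 42 X regions in both lists, 38.1% lay in the middle section and 47.6% held a site.

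Regions seen in 1 replicate were narrower and mostly scored low. X regions in both lists had a median width of 185.5 bp, against 77 bp for replicate 1 only and 55 bp for replicate 2 only. Part of this follows from joining, since a joined region is at least as wide as each of its peaks. The autosomes had the same order, with 208, 82.5 and 59 bp. In replicate 1 the regions in both lists had a median score of 12.04, against 6.76 for the regions of replicate 1 only. In replicate 2 they had a median of 8.81, against 5.13 for the regions of replicate 2 only. The corresponding autosomal medians were 26.36 against 6.11 in replicate 1 and 12.51 against 5.655 in replicate 2, so the order was not particular to X. The best regions of replicate 1 only were a close pair from 1375161 to 1375226 (score 15.2) and from 1375275 to 1375333 (score 22.1), and a region from 11937356 to 11937548 (score 16.0). The best regions of replicate 2 only lay from 14909249 to 14909293 (score 20.2), from 10364087 to 10364127 (score 20.1) and from 4028781 to 4028824 (score 18.8). These were 45, 41 and 44 bp wide, and each belonged to a run of replicate 2 peaks described below.

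X peaks were depleted most among high scores. In replicate 1, 25 of 98 X peaks scored at or above the median of the list (25.5%, interval 17.2 to 35.3%), against 957 of 1850 autosomal peaks (51.7%), with 50.4% over all peaks (Fisher's exact p = 3.91e-07). In replicate 2 it was 48 of 155 X peaks (31.0%, 23.8 to 38.9%) against 983 of 1900 autosomal peaks (51.7%), with 50.2% over all peaks (Fisher's exact p = 6.36e-07). By quartile of the replicate 1 score, from the lowest up, the density of X relative to the autosomes was 0.360, 0.403, 0.200 and 0.0386. In replicate 2 it was 0.674, 0.425, 0.357 and 0.0933. The top quartile thus held 4 X peaks in replicate 1 and 10 in replicate 2. The interval of the ratio was 0.0105 to 0.0993 in that quartile of replicate 1 and 0.0445 to 0.173 in that of replicate 2.

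Since low-scoring peaks less often had a partner on the autosomes too, partner shares on X and the autosomes were set against each other among peaks of like score. A partner is a peak of the other list that shares at least 1 bp. In replicate 1, 42 of 98 X peaks and 1216 of 1850 autosomal peaks had a partner, with 64.6% over all peaks. With the score quartile held, the common odds ratio of X to the autosomes was 0.690 (interval 0.408 to 1.15, exact conditional p = 0.147), against 0.391 without score classes. A lower partner share on X was therefore not shown for replicate 1 at like score, and the interval also allows a marked deficit. In its lowest quartile, 10 of 35 X peaks (28.6%) and 112 of 452 autosomal peaks (24.8%) had a partner. In its top quartile, all 4 X peaks and 482 of 483 autosomal peaks had one.

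In replicate 2 the common odds ratio stayed below 1 at like score. Here 50 of 155 X peaks and 1268 of 1900 autosomal peaks had a partner, with 64.1% over all peaks. The common odds ratio was 0.322 (interval 0.216 to 0.473, exact conditional p = 7.34e-10). With all peaks counted, X was lower in each quartile. From the lowest quartile up, the shares were 20.0% of 65 X peaks against 41.9% of autosomal peaks, 31.8% of 44 against 58.3%, 47.2% of 36 against 71.5%, and 60.0% of 10 against 92.8%. All 4 differences passed the threshold (adjusted Fisher's exact p over 8 tests between 0.00321 and 0.00977), with the 58 X peaks of single-list runs, described below, counted as independent. When peaks inside such runs were left out, the common odds ratio was 0.565 (0.354 to 0.900, exact conditional p = 0.0114). The shares were then 36.1% of 36 X peaks against 47.1%, 45.2% of 31 against 64.4%, 70.8% of 24 against 80.2%, and 6 of 6 against 96.3% in the top quartile, where X was not lower. None of these passed by quartile (adjusted Fisher's exact p over 8 tests from 0.258 to 1). Leaving out runs removes only peaks without a partner, on every chromosome, and so raises both shares. It took out 37.4% of the X peaks of replicate 2 and 8.68% of the autosomal ones, so it raised the X share more by its construction. The difference between the odds ratios of the replicates was not tested.

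**Figure D2:**
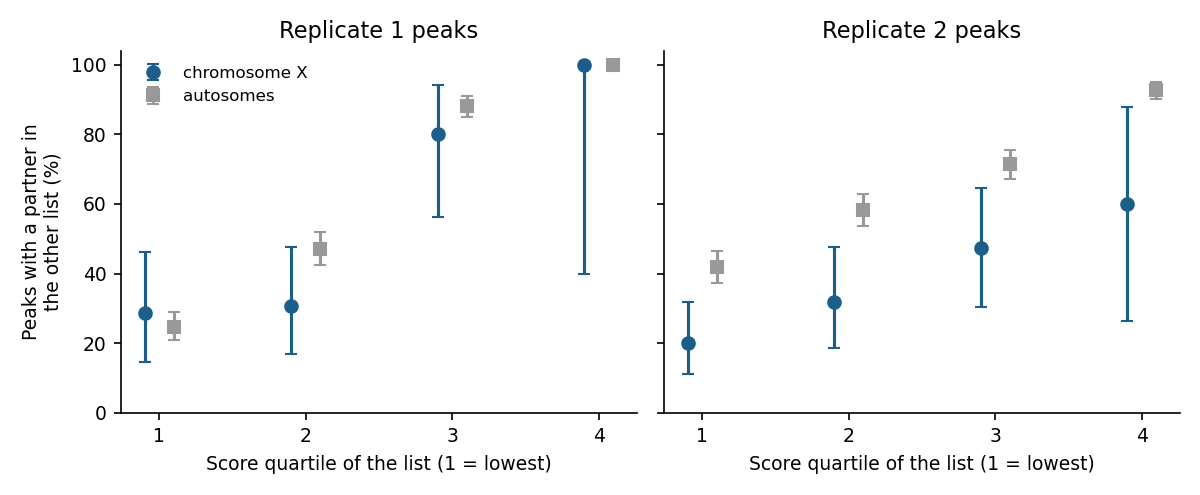
Share of peaks with a partner in the other replicate list, by quartile of the score in the own list, for X and the autosomes with 95% exact intervals. In replicate 1 the X and autosomal intervals overlap in every quartile, while in replicate 2 X is lower in all 4 when the peaks of single-list runs are counted, from 20.0% against 41.9% to 60.0% against 92.8%.

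A large part of the X regions of replicate 2 only lay in a few dense runs. A run was defined, after the lists had been seen, as at least 4 peaks with gaps of at most 5 kb. On X, 5 runs consisted of replicate 2 peaks alone and held 58 of the 105 regions of replicate 2 only (55.2%). On the autosomes, 17 such runs held 165 of 632 regions of replicate 2 only (26.1%). Over the genome, such runs held 223 of the 737 regions of replicate 2 only. These 223 are 8.38% of the 2662 regions of every kind, a share with another base than the 2 above. No run on any chromosome consisted of replicate 1 peaks alone. Regions of a run are not independent, so these shares were not tested.

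The longest of these runs spanned 30.3 kb, from 4026048 to 4056303, and was made of 32 replicate 2 peaks. It accounted for 20.6% of all X peaks of replicate 2, and 0 peaks of replicate 1 and 0 consistent sites fell in it. The next peak of either list was 153 kb away, in the region from 4209148 to 4209332. Its first 5 kb held 16 peaks, of which 11 scored at or above the list median of 8.54, with a highest score of 18.8. The later 16 peaks were spread over the rest, and 0 of them reached that median. Peaks in the run had a median width of 55.5 bp and covered 2327 bp in all, with a median gap of 284 bp. On the autosomes the largest run of replicate 2 alone had 35 peaks but was 9.15 kb long, and 30.3 kb was the longest such run of the genome.

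**Figure D3:**
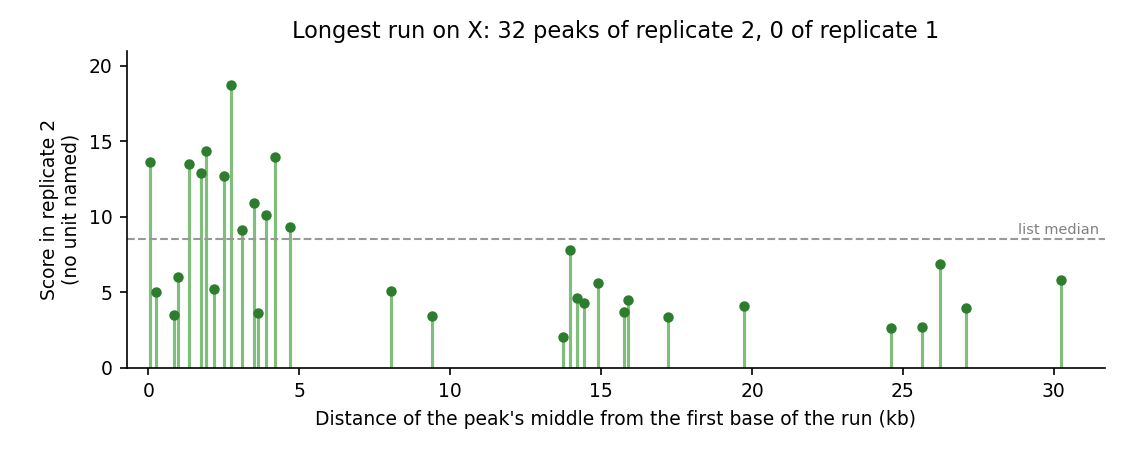
Score in replicate 2 of each of the 32 peaks in the longest X run, by distance from the first base of the run. Peaks above the list median of 8.54 (dashed line) all lie in the first 5 kb, and replicate 1 has no peak in the stretch.

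The other runs of replicate 2 alone were shorter. The second spanned 3729 bp from 11785703 to 11789431 with 12 peaks, scoring from 2.07 to 17.9. A run of 5 peaks lay from 10364087 to 10368413 (best score 20.1), and another of 5 from 14908091 to 14909293 (best score 20.2). The last held 4 peaks from 9185065 to 9188482, with a best score of 5.47. All 5 runs lack replicate 1 peaks by the way they were picked. They also held no consistent site, and 21 of the 23 X sites touched peaks of both lists.

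Counting each run once gave a lower X density in replicate 2. Counted as peaks, the density ratio of X to the autosomes was 0.380 (0.320 to 0.448) in replicate 2 and 0.247 (0.199 to 0.302) in replicate 1. With peaks of each list within 5 kb joined, which counts a run once, it was 0.297 (0.233 to 0.374) in replicate 2 and 0.292 (0.232 to 0.363) in replicate 1. X then had 77 joined intervals in replicate 2 and 86 in replicate 1. Replicate 2 only was then not the most frequent kind on X. With both lists joined within 5 kb, 34 X intervals were of replicate 2 only, 43 of replicate 1 only and 43 of both. The share in both lists was then 35.8% on X (43 of 120) and 65.7% on the autosomes (1021 of 1554), with an odds ratio of 0.292 (Fisher's exact p = 1.95e-10).

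The position of the regions along X was compared with that along the autosomes, for each kind of region. Over all 203 X regions, 55 lay in the middle of 3 equal sections (27.1%, interval 21.1 to 33.8%, exact binomial p = 0.0627 against equal spread), with 36.6% for all regions of the genome. Of the regions in both lists, 16 of 42 lay there (38.1%, 23.6 to 54.4%), close to 446 of 1193 on the autosomes (37.4%, adjusted Fisher's exact p = 1). Of the regions of replicate 1 only, 9 of 56 lay there on X (16.1%, 7.62 to 28.3%), against 267 of 634 on the autosomes (42.1%, 38.2 to 46.1%). This odds ratio was 0.263 (0.112 to 0.556, Fisher's exact p = 0.000278 adjusted over the 3 kinds). The comparison was chosen after the positions had been seen. The single autosomes ran from 37.5% on II to 48.1% on I. With peaks within 5 kb joined, the shares were 18.6% on X and 43.8% on the autosomes (odds ratio 0.294, Fisher's exact p = 0.00157). Of the regions of replicate 2 only, 30 of 105 lay in the middle of X (28.6%) and 206 of 632 in that of the autosomes (32.6%, adjusted Fisher's exact p = 0.648).

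X was cut into 10 equal bins numbered from the left end. Of the regions of replicate 1 only, bins 1 and 2 held 12 and 4, bins 3, 4 and 5 held 1, 0 and 0, and bins 6 to 10 held 6, 4, 8, 10 and 11. Regions in both lists were most frequent in bin 4, with 9, and numbered 2 to 5 in each of the others. By the 3 sections, replicate 1 only regions numbered 17, 9 and 30 from left to right, and regions in both lists 15, 16 and 11. Against an equal spread, the 9 of 56 in the middle did not pass the threshold after adjustment over 10 sets (adjusted exact binomial p = 0.0646). Within X, 29.1% of the 55 middle regions and 17.6% of the 148 outer regions were in both lists, a difference that did not pass the threshold (odds ratio 1.93, interval 0.867 to 4.17, Fisher's exact p = 0.0812). Leaving out the single-list runs, a choice that favours sections holding such runs, gave 47.1% and 23.4% (odds ratio 2.91, Fisher's exact p = 0.0102). With runs kept, the autosomes as a whole had 48.5% in the middle and 48.5% in the outer parts. Single autosomes went either way. Chromosome V had 57.2% in the middle against 43.5% (odds ratio 1.74), and IV had 36.1% against 46.3% (odds ratio 0.657). A higher share in the middle was thus not particular to X.

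**Figure D4:**
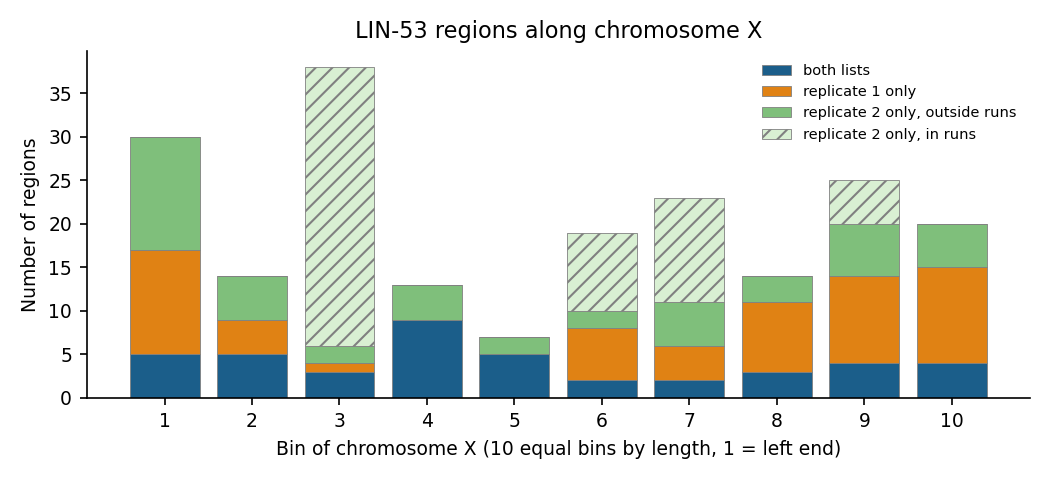
Number of LIN-53 regions in each of 10 equal bins along X, split by the list they came from, with replicate 2 only regions inside single-list runs hatched. Bin 3 has 38 regions, of which 32 belong to the longest run, and bins 3 to 5 together hold 1 region of replicate 1 only.

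Across the 38 X pairs in which each peak had a single partner, Spearman's rho between the replicate scores was 0.578, against 0.782 across 1111 autosomal pairs. Pearson's r was 0.612 on X and 0.773 on the autosomes for log scores. For raw scores it was 0.788 on X and 0.773 on the autosomes, so the lower value on X depended on the measure. The points share their 2 libraries and X spans a smaller range, so the values are descriptive. Replicate 1 scores reached 90.4 in the X pairs, and 219.8 in the autosomal regions of both lists. Replicate 1 had the higher score in 26 of the 38 X pairs (68.4%, 51.4 to 82.5%) and in 948 of 1111 autosomal pairs (85.3%), with 84.8% over all pairs (Fisher's exact p = 0.00937), if both lists use 1 scale. By percentile instead of score the shares were 44.7% and 56.9%, and the difference was not past the threshold (Fisher's exact p = 0.182). Among pairs with both scores at or above their list median it was 11 of 12 on X and 620 of 670 on the autosomes (Fisher's exact p = 0.610).

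Consistent sites lay almost entirely in X regions of both lists. Over all regions, 23 of 203 on X held a site (11.3%, 7.32 to 16.5%), against 614 of 2459 on the autosomes (24.97%, 23.3 to 26.7%). Of the 42 X regions in both lists, 20 held a site (47.6%, 32.0 to 63.6%), against 538 of 1193 on the autosomes (45.1%), with 45.2% over all such regions. The odds ratio was 1.11, with an interval of 0.566 to 2.15 (Fisher's exact p = 0.755), which holds both lower and higher odds on X. Of the regions of replicate 2 only, 3 of 105 on X (2.86%) and 68 of 632 on the autosomes (10.8%) touched a site. Of those of replicate 1 only, 0 of 56 on X and 8 of 634 on the autosomes (1.26%) did. These further shares were not tested. Of the 23 X sites, 21 touched peaks of both lists, and 2 touched replicate 2 alone (from 11605536 to 11605595 and from 16101290 to 16101343). X sites were 53 to 166 bp wide, with a median of 76 bp on X and 79 bp on the autosomes. The site score, whose meaning is not given, had a median of 1.87 on X and 1.86 on the autosomes.

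The raw scores of X regions with and without a site differed in the balance of the replicates, a comparison that takes both lists to be on 1 scale. In replicate 1 the median score was 9.72 for the 20 regions with a site and 19.4 for the 22 without. In replicate 2 it was 9.31 with and 6.90 without a site. The median score ratio of replicate 1 to replicate 2 was 1.08 with and 2.28 without a site. It exceeded 2 in 2 of 20 regions with a site (10.0%) and in 14 of 22 without (63.6%). On the autosomes the corresponding shares were 34.8% of 538 and 63.1% of 655. By percentile within each list, regions with a site were no more even. Their median percentile was 40.0 in replicate 1 and 54.3 in replicate 2, and that of regions without a site was 60.3 in replicate 1 and 39.6 in replicate 2. The median absolute difference between the percentiles was 14.5 points with and 12.6 points without a site. How the sites were selected is not given in the sources used here, so these values describe the list and were not tested.

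**Figure D5:**
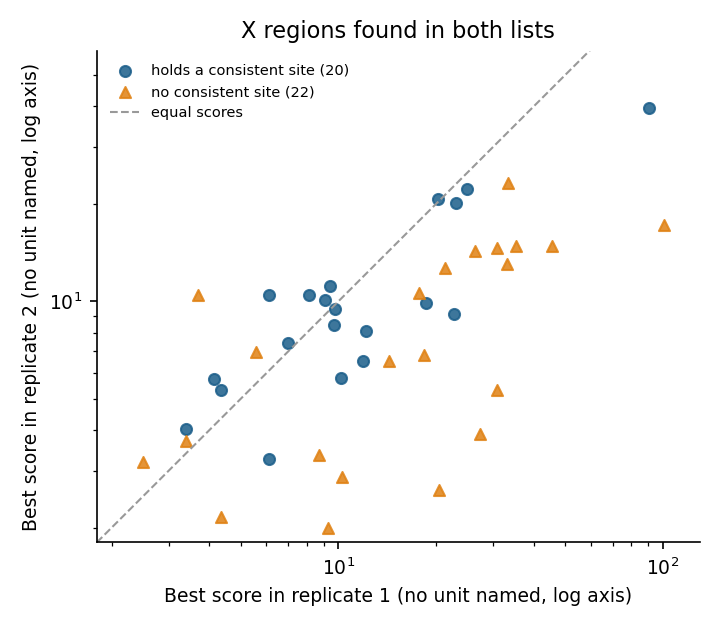
Best score in replicate 2 against best score in replicate 1 for the 42 X regions in both lists, on log axes, with the 20 that hold a consistent site as circles and the 22 that do not as triangles. Regions with a site lie nearer the line of equal raw scores, with a median ratio of 1.08 against 2.28, which assumes 1 score scale.

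In the 4 best-ranked X regions with a site, the site lay to either side of the centre. In the region from 59186 to 59419 the site ran from 59362 to 59420, with its middle 88.5 bp right of the centre of the region and 1 base beyond its right edge. In the region from 2089618 to 2089834 the site (2089760 to 2089821) lay 64.5 bp right of the centre, and in that from 6296386 to 6296658 (site 6296575 to 6296654) it lay 92.5 bp right. In the region from 2242862 to 2243108 the site (2242868 to 2242949) lay 76.5 bp left of the centre. The lower-ranked region from 1504281 to 1504834 (554 bp, scores 22.7 and 9.17 in replicates 1 and 2) had a site at each edge, from 1504281 to 1504352 and from 1504735 to 1504834. None of these sites covered the centre. Over all 21 sites in X regions of both lists, 10 covered it.

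Among the weaker regions, sites covered the centre in some and not in others. Not covered were, for example, the regions from 2997015 to 2997213 and from 13700668 to 13700897, with the site 54.5 and 65 bp left of the centre. The examples that follow were covered at the centre. In the region from 163486 to 163633 (scores 6.11 and 10.5 in replicates 1 and 2) the site spanned 143 of 148 bp. In the region from 10576509 to 10576609 (9.43 and 11.1 in replicates 1 and 2) the site lay 2.5 bp left of the centre. In the region from 12635000 to 12635087 (4.15 and 5.75 in replicates 1 and 2) the site was wider than the region, at 91 against 88 bp. The site from 8109625 to 8109768 joined a region in both lists (8109613 to 8109742) to a replicate 2 only region across a gap of 3 bp (8109746 to 8109840). The 2 X sites with scores below 0 were those at 163489 (-0.76) and 16101290 (-0.51).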

How the data were processed

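Per the labels, 2 LIN-53 ChIP and 2 input libraries were made from chromatin fixed in 1% formaldehyde for 10 min. Per the file headers and source columns, the deposited lists are MACS peaks on WormBase WS220, and the submitters' processing notes name BWA for alignment. Versions, settings and any use of the inputs are not given there. A deposited peak score has no named unit. It is at least 2 in the replicate lists and runs from -1.98 to 1.99 in the series list, so these scales were not compared. Read depth is unknown, and intervals (Clopper-Pearson, 95%) cover counting of regions only.

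Peaks sharing at least 1 bp were joined. A region's score is the best of its peaks in each list. Chromosome length was the furthest interval end (17.7 Mb for X). Shares were compared by two-sided Fisher's exact tests, positions by exact binomial tests, and partner shares across score quartiles by the exact conditional test of R 4.3.3 (mantelhaen.test), with Benjamini-Hochberg adjustment. Joining was tested on simulated data. Alternatives covered overlap, joining distance, score thresholds and each list alone. Python 3.11.15, scipy 1.17.1, pandas 2.3.3 and statsmodels 0.14.6 were used. Members, lists and tests were chosen with earlier results of these data known. Regions are named by a rule: the 12 X regions in both lists with the best mean percentile, the 3 best of each single list, the 3 widest, those with a site and the ends. Single-list runs, their alternatives and neighbouring examples were chosen after seeing the data.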

Additional observations from a re-analysis of the deposited data

How the results depend on the processing

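Among 44 alternatives to 11 results, 35 changed neither the direction nor the call. Some of these could not change, as they repeat the main calculation. The main setting for scores at or above the median uses replicate 1 alone, so leaving out replicate 2 repeats it. Leaving out single-list runs removes 0 peaks of replicate 1, so its partner share stays the same. The lower share of X regions in both lists kept both throughout, with odds ratios from 0.237 to 0.439, but none of these settings held the score quartile. With it held and partners sharing 50% of both peaks, the common odds ratio was 0.937 for replicate 1 (0.535 to 1.61, exact conditional p = 0.896). For replicate 2 it was 0.376 (0.229 to 0.601, exact conditional p = 1.00e-05). A lower share at like score was thus not shown for replicate 1. The share of regions holding a site turned to an odds ratio of 0.693 for regions with both scores at or above the list median (6 of 15 on X). The middle section of X held 27.1% of regions, 38.1% of those in both lists and 34.8% of series sites, both of which lie on the other side of equal spread. It went past the threshold for regions in 1 list only (24.2%) and in replicate 1 only (16.1%), but not after adjustment over the 10 sets (adjusted exact binomial p = 0.0754 and 0.0646). With either replicate left out, it held 25.5% to 30.3%. The odds ratio for scores at or above the median was 0.320 in replicate 1, the main setting, and 0.418 in replicate 2. The higher score in replicate 1 lost its call by percentile (odds ratio 0.614) and in the upper scores (0.887). The partner share of replicate 1 gained a call without score classes (0.391), which compares peaks of unlike score. The middle of X against its outer parts gained a call without single-list runs (2.91). The cause was not tested. No paired analysis was possible because no peak list of an input library was analysed here. Comparisons that need both lists have no value with a replicate left out.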

Other observations

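Large stretches of X had no LIN-53 region. X had 11.5 regions per Mb against 29.8 on the autosomes, and gaps on the autosomes are not given here, so the stretches are descriptive. The longest without a region of either list ran between positions 7194028 and 8036305 (842 kb), followed by 8246221 to 8911195 (665 kb) and 3159767 to 3678689 (519 kb). Regions in both lists left a longer gap of 2261 kb between 8159168 and 10419791, and one of 1341 kb between 163633 and 1504281. The first region of X, from 11566 to 11691, was in both lists with low scores (4.35 in replicate 1 and 5.34 in replicate 2) and held a site. The last, from 17718722 to 17718766, was in replicate 2 only (score 4.66).

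Very narrow peaks were common on X in replicate 2. In that list 53 of 155 X peaks were at most 50 bp wide (34.2%), against 350 of 1900 autosomal peaks (18.4%). In replicate 1 it was 6 of 98 X peaks (6.12%) and 43 of 1850 autosomal peaks (2.32%). The narrowest peak measured 37 bp in replicate 2 and 50 bp in replicate 1, on X and on the autosomes alike. These shares are descriptive, since many narrow peaks of replicate 2 lay in the runs.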
